A study of Mus musculus with 4 samples.

Results

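The clustered protocadherins were examined in cells sorted from embryonic mouse cortex (day 15.5). They were taken as every row of the gene count table whose symbol starts with Pcdha, Pcdhb or Pcdhg. This gave 59 of 23240 rows, of which 15 belonged to the alpha cluster, 22 to the beta cluster and 22 to the gamma cluster. The study compared neurons with neural progenitor cells (NPCs), with 2 RNA-seq libraries of total RNA in each group. The sorted cells came from embryos with both a Nestin-GFP transgene, which labels progenitors, and a DCX-mRFP transgene, which labels young neurons. The embryos were from a cross of Nestin-GFP heterozygous with DCX-mRFP homozygous mice. Cells of the dissociated cortex were sorted by colour. Neurons were the cells positive for both colours and NPCs the cells with green only, so the groups are defined by these 2 promoters. The labels call the libraries duplicates and name no litters or animals, so the p-values rest on how far these libraries vary, and that variation may be technical.

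Clustered protocadherins are cell surface proteins that bind the same protein on another cell. The genes stand in 3 tandem arrays on the same chromosome. Each member has its own promoter and a large variable exon, which encodes the extracellular part and the transmembrane part. In the alpha and gamma arrays the chosen variable exon is spliced to constant exons that encode a cytoplasmic tail common to the whole array. Beta members are single-exon genes with no such tail. A neuron switches on a small and largely random set of members, which gives it a surface identity used in dendrite self-avoidance, axon tiling and neuron survival. The C-type members at the end of the alpha and gamma arrays are known for a more regular expression than the others.

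The libraries held 52611828 and 55329294 counts in neurons and 53533953 and 55615142 counts in NPCs. Levels are given as CPM, which are counts scaled to a common library total after TMM scaling. The labels were checked against marker lists, in a fit that called 35.8% of all genes tested higher in neurons and 36.9% lower. All 11 markers of neurons that were tested were higher in neurons, with summed levels of 8945 and 9126 CPM in neurons and 2178 and 2166.3 CPM in NPCs. Of 12 radial glia markers 11 were lower in neurons, with summed levels of 722 and 737 CPM in neurons and 3531 and 3519 CPM in NPCs. All 8 markers of intermediate progenitors were lower in neurons (619 and 604 CPM in neurons, 2930 and 2904 CPM in NPCs, summed). Markers of other cells were mostly lower in neurons too. All 12 markers of endothelium and pericytes were lower in neurons (12.6 and 12.8 CPM in neurons, 346 and 355 CPM in NPCs, summed). So were 7 of 8 markers of oligodendrocyte precursors (58.9 and 56.2 CPM in neurons, 244 and 253 CPM in NPCs), all 8 of microglia (22.2 and 21.4 CPM in neurons, 45.6 and 45.6 CPM in NPCs), 7 of 8 of meninges (3.95 and 3.45 CPM in neurons, 43.2 and 43.7 CPM in NPCs) and all 5 tested of blood (160 and 158 CPM in neurons, 1157 and 954 CPM in NPCs). Cspg5, the oligodendrocyte precursor marker not called, made up most of the sum of its list in neurons. It had 51.6 and 48.2 CPM in neurons and 47.8 and 51.6 CPM in NPCs. Of 3 choroid plexus markers tested 2 were lower (0.973 and 0.910 CPM in neurons, 1.51 and 1.44 CPM in NPCs). Of 10 interneuron markers 4 were higher and 3 lower (227 and 242 CPM in neurons, 267 and 259 CPM in NPCs), near the shares of all genes. No marker on these lists was at 0 in every library, and the part of these cells in the results on protocadherins was not tested. In sorted pools, a change in the number of cells that express a gene and a change in its RNA per cell cannot be told apart.

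The single-exon beta members were higher in neurons throughout the array. Of 22 members, 21 passed the filter on low counts and were tested, and all 21 were called higher in neurons (edgeR's quasi-likelihood test, Benjamini-Hochberg adjusted p under 0.05). Over all 15292 genes tested, 35.8% were called higher in neurons. The median log2 change of the 21 members was 1.25, against -0.02 over all genes tested. Both neuron libraries lay above both NPC libraries for all 21 members, which was so for 42.0% of all genes tested (44.0% lay below). The remaining member, Pcdhb1, the outermost gene of the beta array on the alpha side, had 0 counts in every library. A count of 0 allows a level of up to 0.0614 CPM in neuron replicate 1, the highest such limit of the 4 libraries (3 counts, counting error only).

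Summed over the array, beta counts came to 148 and 144 CPM in the neuron libraries, against 59.3 and 58.2 CPM in the NPC libraries. The sum was 2.49 times as high in neurons, and the libraries of a group differed by less than the groups. The number of reads behind single members ranged widely. Pcdhb7 had 1275 and 1242 raw counts in neurons and 570 and 612 in NPCs. Pcdhb13 had only 28 and 32 in neurons and 11 and 13 in NPCs. Summed raw counts were 7225 and 7457 in neurons and 3414 and 3474 in NPCs.

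**Figure D1:**
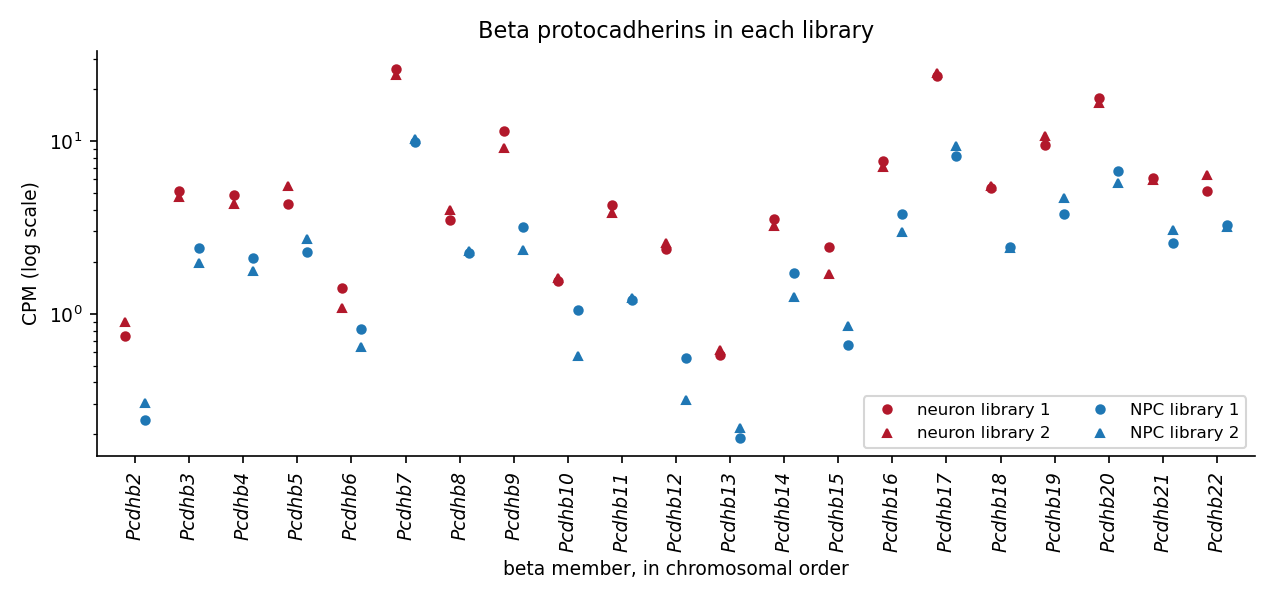
CPM of the 21 detected beta members (log scale) in each neuron library (red) and NPC library (blue), in chromosomal order; circles and triangles are libraries 1 and 2. Within every member both red points lie above both blue points, while levels differ between members from under 1 CPM to over 20 CPM.

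A few members carried a large share of the beta signal. Pcdhb7 had 26.1 and 24.1 CPM in neurons and 9.90 and 10.3 CPM in NPCs. Pcdhb17 had 23.9 and 24.7 CPM in neurons and 8.18 and 9.43 CPM in NPCs. Pcdhb20 had 17.7 and 16.7 CPM in neurons and 6.70 and 5.75 CPM in NPCs. For each of these 3 members the lowest neuron value was well above the highest NPC value, and their log2 changes were 1.31 ± 0.09, 1.47 ± 0.09 and 1.47 ± 0.11 (± SE, edgeR adjusted p = 6.1e-10, 3.6e-10 and 1.9e-09). Pcdhb19, the next in mean level, had 9.55 and 10.7 CPM in neurons and 3.78 and 4.70 CPM in NPCs, a log2 change of 1.26 ± 0.13. Together these 4 members held 52.3% and 52.8% of summed beta counts in neurons and 48.2% and 51.8% in NPCs.

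Levels can be compared between members per length. Coding lengths of the beta genes run from 2316 to 2487 bases in GENCODE M21, an annotation of a later build than the deposited table's. The untranslated lengths used in the counting were not given in the sources used here, so this order is approximate. Per kilobase of coding sequence, Pcdhb7 and Pcdhb17 both averaged 10.1 CPM in neurons, against 4.05 and 3.67 CPM in NPCs, and their values overlapped in neurons. Pcdhb20 followed at 7.19 CPM per kilobase in neurons and 2.60 in NPCs. Pcdhb19 and Pcdhb9 came next in neurons, at 4.22 and 4.15 CPM per kilobase, and did not differ beyond their spread. In NPCs they stood at 1.76 and 1.11. At the low end were Pcdhb2, at 0.342 CPM per kilobase in neurons and 0.114 in NPCs, and Pcdhb13, at 0.250 in neurons and 0.0856 in NPCs. The rank of members was nearly kept between the groups (Spearman's rho of mean CPM 0.96 over 21 members, which share libraries, described without a test).

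The size of the rise varied between members. Pcdhb12 had the largest, with 2.38 and 2.59 CPM in neurons and 0.558 and 0.319 CPM in NPCs, a log2 change of 2.50 ± 0.29 (edgeR adjusted p = 6.6e-07). Pcdhb9 had 11.5 and 9.11 CPM in neurons and 3.19 and 2.33 CPM in NPCs, a log2 change of 1.9 ± 0.16. Pcdhb11 had 4.27 and 3.85 CPM in neurons and 1.203 and 1.24 CPM in NPCs, a log2 change of 1.74 ± 0.19. The neuron values of these 3 members did not approach the NPC values. Pcdhb2, at 0.740 and 0.900 CPM in neurons and 0.241 and 0.304 CPM in NPCs, had a log2 change of 1.57 ± 0.38, with the wider error of a gene with few reads.

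The smallest rises were those of Pcdhb8, Pcdhb6, Pcdhb22 and Pcdhb10. Pcdhb8 had 3.51 and 3.98 CPM in neurons and 2.25 and 2.31 CPM in NPCs, a log2 change of 0.71 ± 0.17 (edgeR adjusted p = 0.0013). Pcdhb22, the last gene of the array, had 5.17 and 6.39 CPM in neurons and 3.26 and 3.17 CPM in NPCs, a log2 change of 0.85 ± 0.15. Both were still clear of the NPC values. Pcdhb6 had 1.41 and 1.08 CPM in neurons and 0.813 and 0.642 CPM in NPCs, a log2 change of 0.78 ± 0.29 (edgeR adjusted p = 0.026). Pcdhb10 had 1.54 and 1.61 CPM in neurons and 1.04 and 0.566 CPM in NPCs, a log2 change of 0.97 ± 0.30 (edgeR adjusted p = 0.0081). These last 2 calls were the least stable. That of Pcdhb6 was lost with library size as the only scaling (adjusted p = 0.090), with DESeq2 (0.10), without NPC replicate 2 (0.16) and without neuron replicate 1 (0.17), and that of Pcdhb10 without NPC replicate 2 (0.12).

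The other 9 tested beta members had log2 changes between 0.97 for Pcdhb5 and 1.53 for Pcdhb13, and all 9 were called higher in neurons. Spearman's rho between position in the array and the log2 change was -0.03 over 21 members, which share libraries, given as a description.

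Whether single beta members rose more or less than the array was tested by scaling each library to its summed beta counts and refitting the whole table. In that fit 17 of the 21 members were not called, 2 were called higher and 2 lower, while 93.2% of all genes were called in either direction. Each member is itself part of the sum, so the members centre near 0 by construction (median -0.07, against -1.33 over all genes). The contrast with all genes therefore follows from the scaling. Pcdhb12 and Pcdhb9 rose relative to the array, with log2 changes of 1.19 ± 0.30 and 0.58 ± 0.15 (edgeR adjusted p = 0.00036 and 0.00059). Pcdhb12 held 1.61% and 1.79% of summed beta counts in neurons, against 0.941% and 0.547% in NPCs. Pcdhb8 and Pcdhb22 fell relative to the array, by 0.60 ± 0.18 and 0.46 ± 0.16 on the log2 scale (edgeR adjusted p = 0.0024 and 0.0067). Pcdhb8 held 2.37% and 2.76% in neurons, against 3.80% and 3.97% in NPCs. The calls of Pcdhb9 (adjusted p = 0.052 without NPC replicate 2) and Pcdhb22 (0.086 without neuron replicate 1) rested on single libraries. The counting error of the sum itself is not carried into these errors.

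The alpha and gamma rows had another form. Within each array the rows of a library were nearly equal, although each stands for a different variable exon. Among 14 alpha rows, Pcdha4-g left out, the highest exceeded the lowest by 14.6% and 13.1% in neurons and by 17.2% and 18.9% in NPCs. Among 22 gamma rows the excess of the highest was 6.36% and 8.27% in neurons and 7.41% and 7.06% in NPCs. Beta rows of a single library, by contrast, spanned more than an order of magnitude. Alpha and gamma members share their last exons, so rows of an array are not separate measurements.

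**Figure D2:**
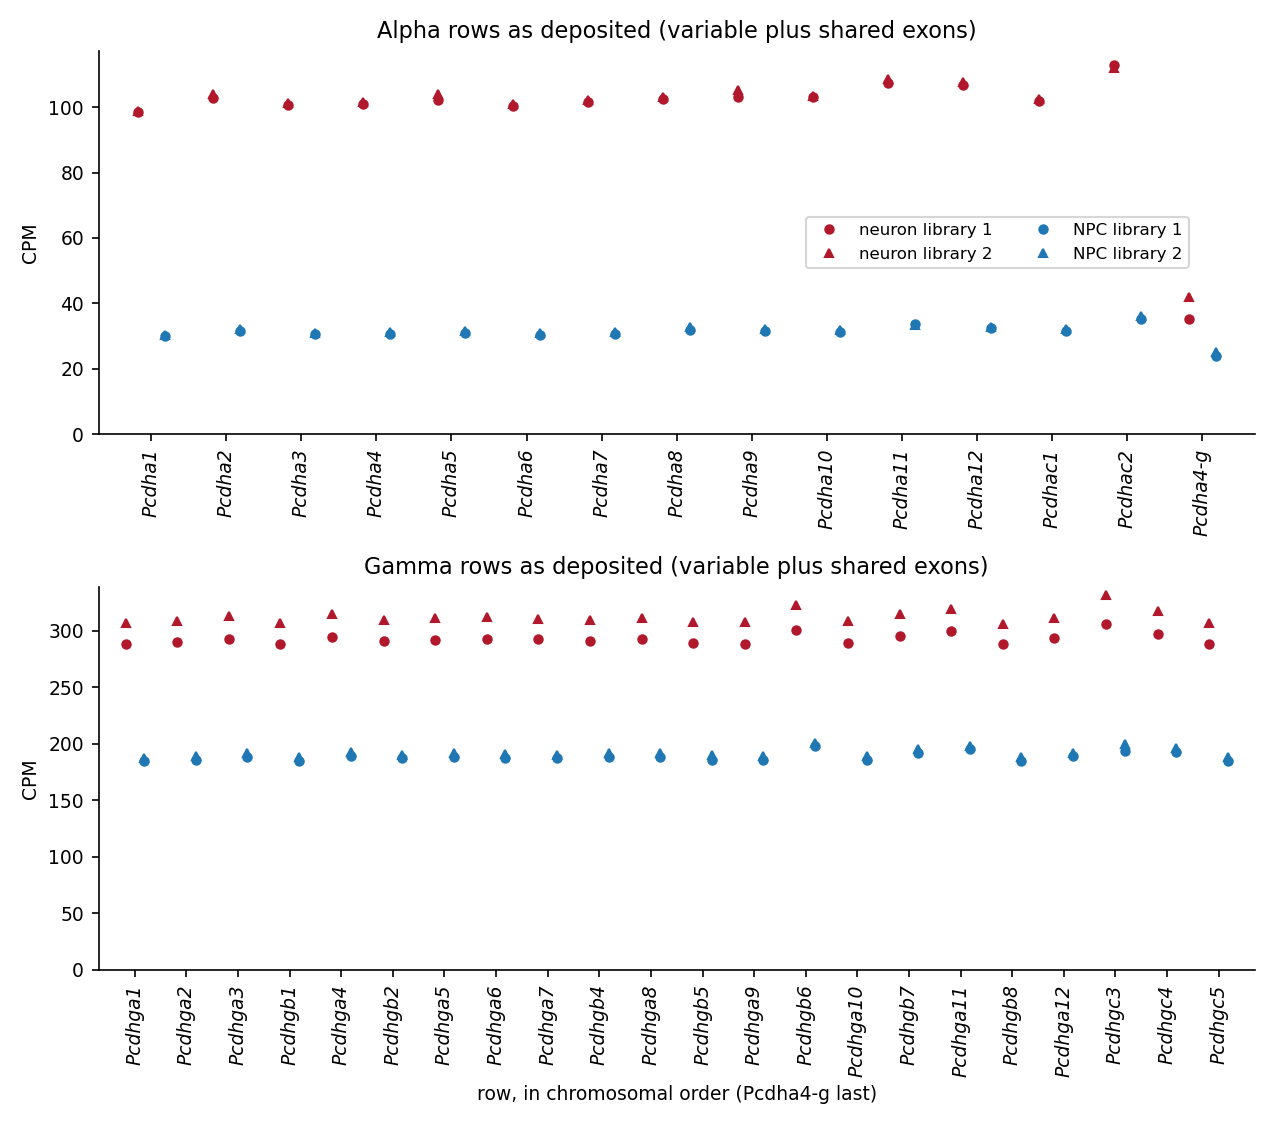
CPM of every alpha row (top) and gamma row (bottom) as deposited, in neuron libraries (red) and NPC libraries (blue); circles and triangles are libraries 1 and 2. Rows of an array form a nearly flat line in each library, at about 100 CPM in neurons and 30 CPM in NPCs for alpha, with Pcdha4-g apart from the others.

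As deposited, all 15 alpha rows were called higher in neurons, with a median log2 change of 1.71, and so were all 22 gamma rows, with a median of 0.67. Since the rows share exons, these counts are not counts of independent genes. Apart from Pcdha4-g, described below, the lowest alpha row in every library was Pcdha1, at 98.5 and 98.9 CPM in neurons and 29.9 and 30.3 CPM in NPCs, and it rose by 1.71 ± 0.06 on the log2 scale (edgeR adjusted p = 1.4e-13). The lowest gamma row stood at 288 and 306 CPM in neurons and 184 and 188 CPM in NPCs. Which gamma row was lowest differed, being Pcdhga1 in both NPC libraries and Pcdhgc5 and Pcdhgb8 in the neuron libraries. With each array entered as the mean of its rows, the log2 change was 1.67 ± 0.06 for alpha (fold 3.19, edgeR adjusted p = 6.6e-13) and 0.68 ± 0.05 for gamma (fold 1.60, adjusted p = 1.4e-08). The groups did not overlap in either array.

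The C-type rows followed their arrays. Pcdhac2, the highest alpha row, had 113 and 112 CPM in neurons and 35.1 and 36.01 CPM in NPCs, and Pcdhac1 had 102 and 103 CPM in neurons and 31.4 and 32.1 CPM in NPCs. Pcdhgc3 had 306 and 332 CPM in neurons and 193 and 199 CPM in NPCs, Pcdhgc4 had 297 and 318 CPM in neurons and 193 and 196 CPM in NPCs, and Pcdhgc5 had 288 and 306 CPM in neurons and 185 and 188 CPM in NPCs. All 5 had neuron values clear of the NPC values. Of the other rows with high levels, Pcdha11 had 107 and 108 CPM in neurons and 33.5 and 33.4 CPM in NPCs, Pcdha12 had 107 and 108 CPM in neurons and 32.6 and 32.7 CPM in NPCs, and Pcdha9 had 103 and 105 CPM in neurons and 31.6 and 32.1 CPM in NPCs. Pcdhgb6 had 301 and 323 CPM in neurons and 198 and 201 CPM in NPCs, and Pcdhga11 had 300 and 319 CPM in neurons and 195 and 198 CPM in NPCs.

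Apart from Pcdha4-g, whose log2 change of 0.65 ± 0.08 was the smallest among alpha rows, changes differed little within an array. The other 14 alpha rows ran from 1.66 ± 0.06 for Pcdhac2 upwards, and the largest were those of Pcdha5 (1.73 ± 0.06), at 102 and 104 CPM in neurons and 30.9 and 31.4 CPM in NPCs, and Pcdha7 (1.72 ± 0.06), at 102 and 102 CPM in neurons and 30.5 and 31.3 CPM in NPCs. Among gamma rows they ran from 0.64 ± 0.06 for Pcdhgb6 and 0.65 ± 0.05 for Pcdhgb7, at 295 and 315 CPM in neurons and 192 and 196 CPM in NPCs, to 0.68 ± 0.05 for Pcdhga6, at 293 and 312 CPM in neurons and 187 and 191 CPM in NPCs, and 0.70 ± 0.06 for Pcdhgc3. Differences between rows of an array were not tested.

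Relative to the summed beta counts, the shared signals of the 2 arrays moved in opposite directions. In the fit scaled to that sum, 14 of 15 alpha rows were higher in neurons, where 5.24% of all genes were called higher, and the median over the 15 rows was 0.39. The remaining alpha row, Pcdha4-g, was lower (-0.66 ± 0.09, edgeR adjusted p = 2.3e-09). All 22 gamma rows were lower in neurons (median -0.64), where 87.9% of all genes were. Pcdha1 had a log2 change of 0.40 ± 0.07 and Pcdhga1 one of -0.64 ± 0.06 in that fit (edgeR adjusted p = 1.2e-06 and 1.5e-12). The shared alpha signal thus rose more than summed beta counts, and the shared gamma signal rose less.

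Pcdha4-g was the exception among alpha rows. It had 35.1 and 41.9 CPM in neurons and 24.0 and 25.1 CPM in NPCs, below the other alpha rows of each library, and its log2 change being 0.65 ± 0.08 (edgeR adjusted p = 2.2e-06). The exons that the row stands for were not given in the sources used here, and it was kept apart from the other 14 alpha rows below.

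The reads of the variable exons can be reached as differences between rows of the same array. If each read of the constant exons enters every row once, the count of a row minus that of the lowest row in the same library is the difference in reads of their own exons. This excess understates each member by what the lowest row itself holds. Every excess of an array in a library subtracts the same count, so the rows are not independent. The counting error of that subtracted count is not carried into the standard errors. The whole table was fitted again with alpha and gamma rows replaced by their excess.

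**Figure D3:**
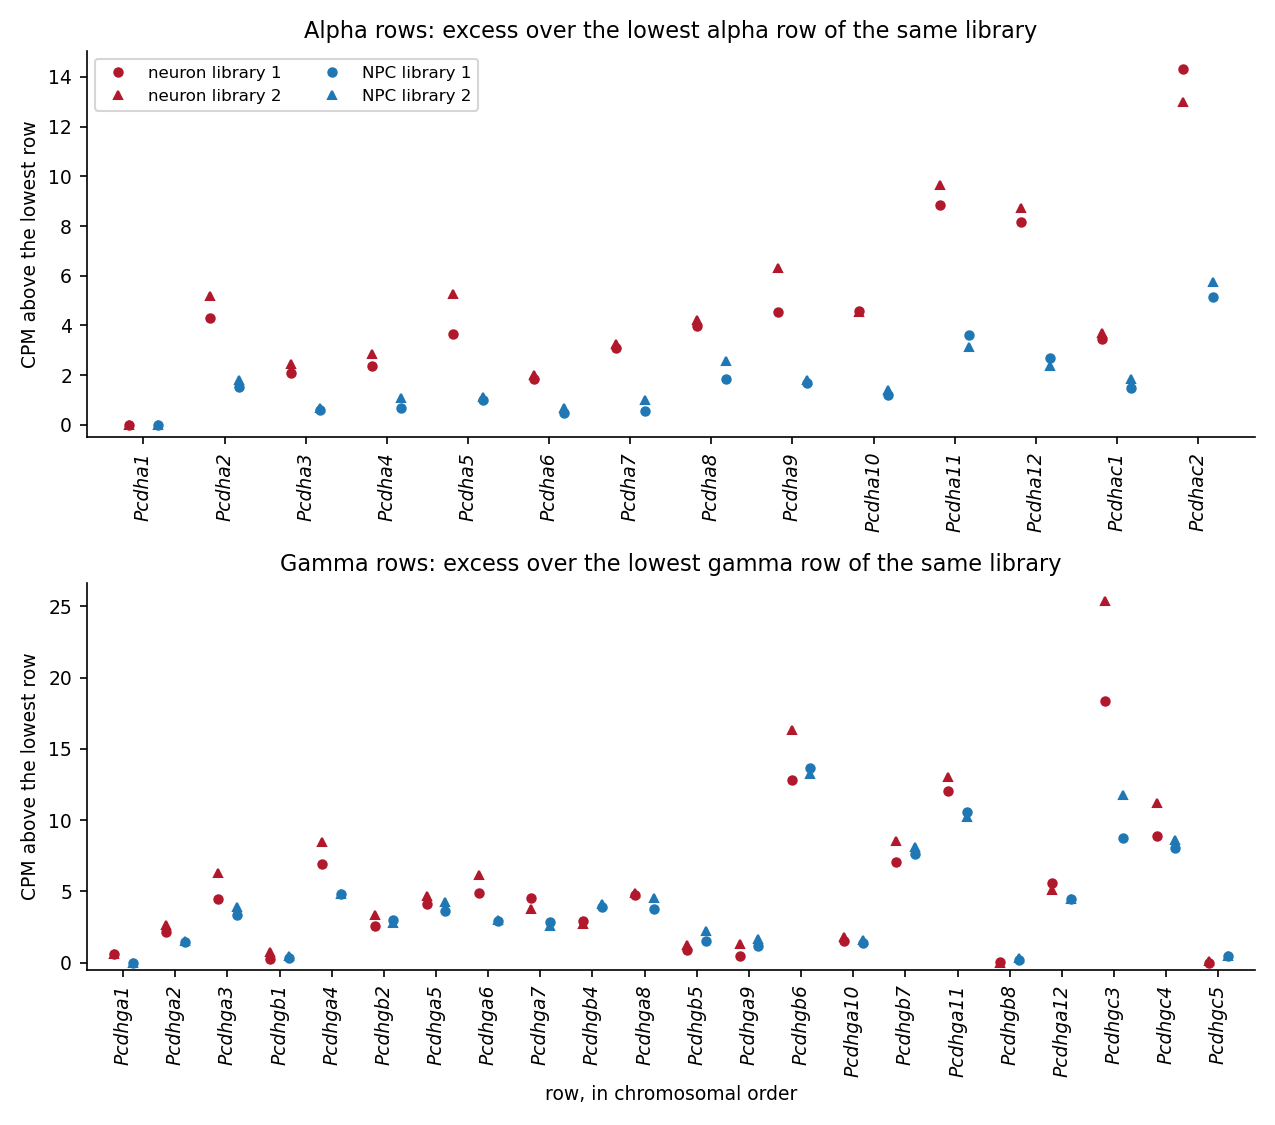
Excess of each alpha row (top) and gamma row (bottom) over the lowest row of its array in the same library, in CPM, in neuron libraries (red) and NPC libraries (blue); circles and triangles are libraries 1 and 2. All alpha rows but the lowest are higher in neurons, whereas red and blue points lie close together for many gamma rows and Pcdhgc3 stands out.

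The excess of alpha rows was higher in neurons for every member that could be tested. All 13 rows other than Pcdha1 were called higher, where 35.7% of all genes in that fit were, with a median log2 change of 1.64. Pcdhac2, the C-type member nearest to the constant exons, which is needed for the tiling of serotonergic axons in mice, had the largest excess. It was 14.3 and 13.0 CPM in neurons and 5.16 and 5.73 CPM in NPCs, a log2 change of 1.33 ± 0.11 (edgeR adjusted p = 1.1e-08). Pcdhac1, the other C-type member, had an excess of 3.45 and 3.69 CPM in neurons and 1.48 and 1.85 CPM in NPCs, a log2 change of 1.11 ± 0.19. Neuron and NPC values did not overlap in either.

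Among the numbered alpha members, Pcdha11 and Pcdha12 had the largest excess. That of Pcdha11 was 8.83 and 9.64 CPM in neurons and 3.62 and 3.14 CPM in NPCs, a log2 change of 1.45 ± 0.13. That of Pcdha12 was 8.17 and 8.73 CPM in neurons and 2.68 and 2.38 CPM in NPCs, a log2 change of 1.74 ± 0.14 (edgeR adjusted p = 5.9e-09). These 2 are the numbered members next to the C-type members. Pcdha9 had 4.55 and 6.30 CPM in neurons and 1.68 and 1.82 CPM in NPCs.

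The largest alpha changes were those of Pcdha5, with an excess of 3.65 and 5.27 CPM in neurons and 1.00 and 1.11 CPM in NPCs (log2 change 2.08 ± 0.22), and of Pcdha7, with 3.09 and 3.26 CPM in neurons and 0.558 and 1.02 CPM in NPCs (2.00 ± 0.25). The smallest was that of Pcdha8, with 3.97 and 4.23 CPM in neurons and 1.86 and 2.58 CPM in NPCs (0.89 ± 0.18, edgeR adjusted p = 0.00035). Even here the neuron values stayed above the NPC values. When libraries were scaled to the lowest alpha row, 0 of 13 members were called higher, 3 lower (Pcdha8, Pcdhac1 and Pcdhac2) and 10 neither. Of all genes in that fit 2.78% were called higher, 91.8% lower and 94.5% in either direction. These counts rested on single libraries, with 1 higher and 2 lower without NPC replicate 2 and 1 higher and 3 lower without neuron replicate 1.

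The alpha excess was also set against the beta array. With libraries scaled to summed beta counts, 8 of 13 alpha members were not called, 4 were higher and 1 was lower, with a median of 0.32. Of all genes in that fit 5.18% were called higher and 93.1% in either direction. The members called higher were Pcdha5, Pcdha7, Pcdha10 and Pcdha12, with log2 changes from 0.43 ± 0.15 for Pcdha12 to 0.76 ± 0.22 for Pcdha5, and the member called lower was Pcdha8 (-0.43 ± 0.19, edgeR adjusted p = 0.031). These counts depended on single libraries. The number of alpha members called fell to 3 without NPC replicate 1 and to 3 without NPC replicate 2.

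The excess of gamma rows had no common direction. Of 22 gamma rows, 8 had an excess called higher in neurons, 4 lower and 10 neither, and the median log2 change was 0.23. That fit called 35.7% of all genes higher, 36.8% lower and 72.6% in either direction, so the share of gamma rows higher was near that of all genes. Pcdhga1, Pcdhgb1, Pcdhgb8 and Pcdhgc5 had an excess under 1 CPM in every library, and for them the outcome follows from which row is the lowest. Pcdhgb8 is annotated as a transcribed pseudogene in RefSeq, whereas GENCODE M21 gives it a coding length of 2793 bases. Without these 4 rows, 7 were called higher, 2 lower and 9 neither, again with a median of 0.23. Taken over 1 fixed row, 11 gamma rows were higher and 1 was lower. Fewer rows were tested there, 33 alpha and gamma rows in place of 35. The number of gamma rows lower was 2 with DESeq2 and 2 without NPC replicate 2. Without neuron replicate 2, 5 rows were higher. The median of the 22 was 0.03 with library size as the only scaling, 0.14 with upper-quartile factors, 0.08 without neuron replicate 2 and 0.14 without NPC replicate 1.

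Pcdhgc3, a C-type member that acts in dendrite branching of cortical neurons in mice, had the largest excess in neurons. It was 18.3 and 25.3 CPM in neurons and 8.72 and 11.8 CPM in NPCs, a log2 change of 1.09 ± 0.14 (edgeR adjusted p = 2.7e-06). It was also the gamma member with the largest change among those that reached 1 CPM. Pcdhgc4, the member required for neuron survival in mice, had 8.90 and 11.2 CPM in neurons and 8.07 and 8.59 CPM in NPCs. The groups did not overlap, but its log2 change of 0.27 ± 0.12 missed the threshold (edgeR adjusted p = 0.052). It passed with RLE factors (adjusted p = 0.043), without a filter (0.039), over 1 fixed lowest row (0.028) and without neuron replicate 1 (0.44, adjusted p = 4.5e-04). Pcdhgc5 had 0 and 0.149 CPM in neurons and 0.449 and 0.453 CPM in NPCs, so it stood at or near the lowest row in every library.

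The A-type and B-type gamma members, which alternate along the array, had different counts of calls. Of 12 A-type rows 7 were higher in neurons and 5 were not called. Of 7 B-type rows 3 were lower and 4 were not called. Of all genes in that fit 35.7% were higher and 36.8% lower. These counts include Pcdhga1 and Pcdhgb8, whose excess depends on the lowest row. Over 1 fixed row the B-type Pcdhgb1 was called higher (1.78, edgeR adjusted p = 0.014) and Pcdhgb5 was not called (0.062). The A-type Pcdhga12 was called higher there (0.34, 0.037). DESeq2 called neither Pcdhgb5 (adjusted p = 0.059) nor Pcdhgb8 (0.056), and the A-type call of Pcdhga11 was lost as well (0.055). The difference between the types was not tested.

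Pcdhga1 is set aside here, as its excess was 0 in the NPC libraries by construction. Among the other A-type members, Pcdhga6 had the clearest rise. Its excess was 4.91 and 6.17 CPM in neurons and 2.95 and 3.03 CPM in NPCs (log2 change 0.89 ± 0.16, edgeR adjusted p = 7.3e-05). Pcdhga4 had 6.90 and 8.43 CPM in neurons and 4.80 and 4.80 CPM in NPCs (0.68 ± 0.13). Pcdhga11, the A-type member with the largest excess, had 12.1 and 13.1 CPM in neurons and 10.6 and 10.2 CPM in NPCs. Its small change of 0.27 ± 0.10 (edgeR adjusted p = 0.020) was lost in 6 alternatives, among them library size only (0.07, adjusted p = 0.54). Pcdhga2, Pcdhga3 and Pcdhga7 were also called higher, with log2 changes from 0.57 to 0.71. The call of Pcdhga2 was lost without neuron replicate 2 (adjusted p = 0.050), and that of Pcdhga3 without neuron replicate 2 (0.11) and with library size only (0.060). Pcdhga9 was not called (-0.66 ± 0.35), but was called lower without neuron replicate 2 (-1.47), without NPC replicate 1 (-0.89) and with library size only (-0.87).

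Among B-type members, Pcdhgb6 had the largest excess and was not called, with 12.8 and 16.3 CPM in neurons and 13.7 and 13.2 CPM in NPCs (log2 change 0.12 ± 0.11, edgeR adjusted p = 0.33). Pcdhgb7 had 7.07 and 8.57 CPM in neurons and 7.61 and 8.12 CPM in NPCs, with groups that overlapped (-0.01 ± 0.12). Pcdhgb4 went the other way, with 2.93 and 2.72 CPM in neurons and 3.94 and 4.11 CPM in NPCs (-0.51 ± 0.16, edgeR adjusted p = 0.0086). Pcdhgb5 had 0.914 and 1.28 CPM in neurons and 1.56 and 2.20 CPM in NPCs (-0.77 ± 0.26, adjusted p = 0.014). The calls of these 2 falls were lost without NPC replicate 2 (adjusted p = 0.055 for Pcdhgb4 and 0.20 for Pcdhgb5), and that of Pcdhgb5 also without neuron replicate 1 (0.079), with DESeq2 (0.059) and over 1 fixed row (0.062).

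**Figure D4:**
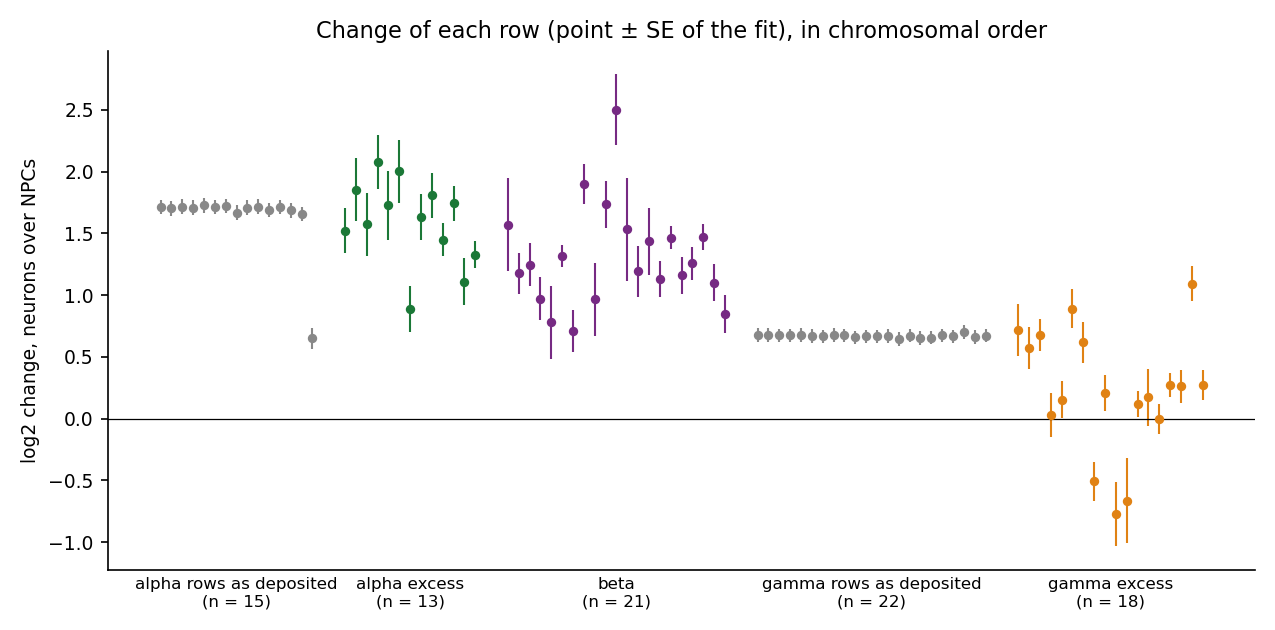
Log2 change (neurons over NPCs, ± SE of the fit) of alpha rows as deposited, alpha excess, beta members, gamma rows as deposited and gamma excess (members reaching 1 CPM), each in chromosomal order. Rows as deposited lie on a line within each array, apart from Pcdha4-g, with medians of 1.71 for alpha and 0.67 for gamma, whereas the excess and the beta members scatter and gamma excess runs from -0.77 to 1.09.

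The gamma excess was set against the beta members, which share no exon with it. With libraries scaled to summed beta counts, 20 of 22 gamma rows had an excess that was lower in neurons, 1 was higher and 1 was not called, in a fit that called 87.9% of all genes lower. The median log2 change was -1.08. The row called higher was Pcdhga1, whose excess was 0 in the NPC libraries by construction. The member not called was Pcdhgc3 (-0.22 ± 0.13, edgeR adjusted p = 0.088). Pcdhgb6 had a log2 change of -1.196 ± 0.11 and Pcdhga11 one of -1.04 ± 0.11 in that fit. The share of gamma rows called lower was near that of all genes, so the count says nothing particular of these rows.

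The gamma excess was then set against the lowest gamma row. With libraries scaled to the lowest gamma row, the excess of 14 of 22 rows was lower in neurons, 2 were higher and 6 were not called, with a median of -0.44, in a fit that called 73.6% of all genes lower, 11.6% higher and 85.1% in either direction. The 2 higher were Pcdhgc3 and Pcdhga1. Summed over the array, gamma excess was 106 and 128 CPM in neurons and 88.0 and 94.6 CPM in NPCs, a ratio of 1.28, while the lowest row had a ratio of 1.60. The lowest gamma row was not the same member in neurons and NPCs, and the sum subtracts it once for every row. Small differences in that row therefore weigh on this ratio and on the gamma shares that follow. As a share of the lowest row, summed gamma excess was 36.8% and 41.9% in neurons and 47.7% and 50.5% in NPCs. For alpha the summed excess was 65.3 and 71.2 CPM in neurons and 22.5 and 25.3 CPM in NPCs, a ratio of 2.86, and the lowest row had a ratio of 3.28. Alpha shares of the lowest row were 66.3% and 72.0% in neurons and 75.1% and 83.6% in NPCs, with groups that did not overlap in either array.

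**Figure D5:**
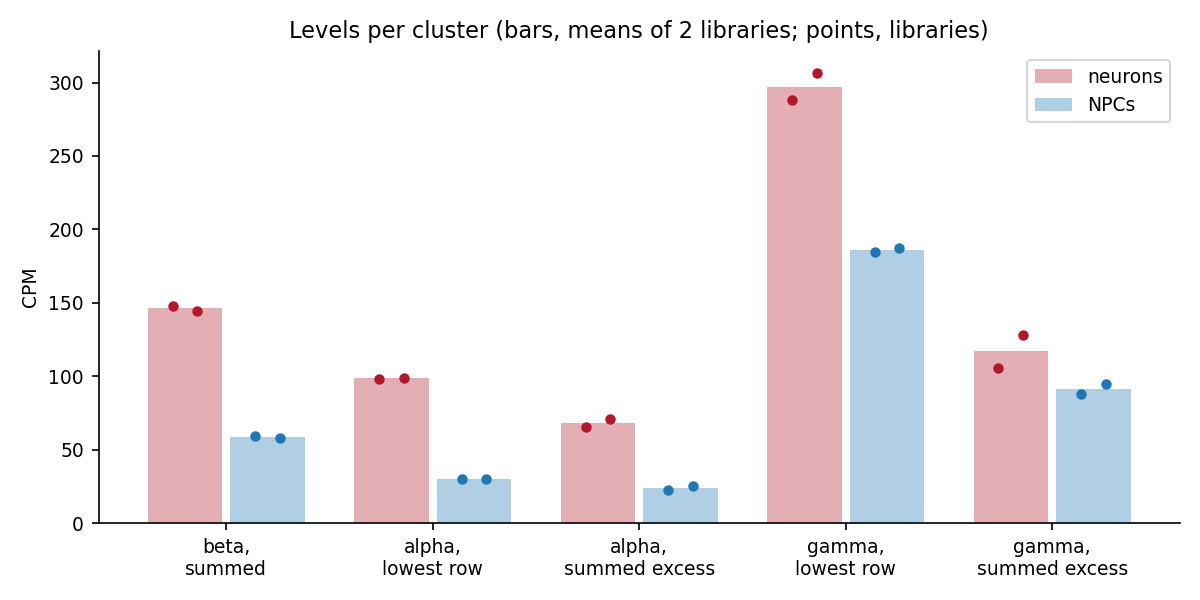
Levels per array in CPM, as summed beta counts, lowest row and summed excess over the lowest row; bars are means of 2 libraries and points are libraries, neurons in red to the left of NPCs in blue. The ratio of neurons to NPCs is 2.49 for beta, 3.28 and 2.86 for the alpha lowest row and excess, and 1.60 and 1.28 for the gamma lowest row and excess. The lowest gamma row is not the same member in neurons and NPCs.

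The genes known to act in promoter choice were mostly lower or not called. The DNA-binding protein CTCF and the ring-shaped cohesin complex bring protocadherin promoters to a distant enhancer. Of 14 genes for CTCF, cohesin and its loaders and regulators, 2 were higher in neurons, 8 lower and 4 not called, with a median log2 change of -0.16 and against 36.9% of all genes called lower. Ctcf had 188 and 191 CPM in neurons and 174 and 177 CPM in NPCs and was not called (0.11 ± 0.05, edgeR adjusted p = 0.064). The genes of the cohesin subunits Rad21 and Stag2 were lower, with log2 changes of -0.64 ± 0.06 and -0.76 ± 0.06. Smc3, the cohesin subunit gene with the highest level, had 283 and 259 CPM in neurons and 277 and 287 CPM in NPCs and was not called, though upper-quartile factors (-0.16), library size only (-0.267) and the fit without neuron replicate 1 (-0.11) called it lower. Mau2, a cohesin loader gene, had 118 and 124 CPM in neurons and 96.0 and 95.6 CPM in NPCs (0.34 ± 0.05), and Esco2, for an acetyltransferase active in dividing cells, was lower at 12.6 and 11.1 CPM in neurons and 48.7 and 47.9 CPM in NPCs.

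DNA methylation and chromatin silencing keep most protocadherin promoters off. Of 12 genes listed for these processes, 2 were higher in neurons, 4 lower and 6 not called (median -0.04). Over all genes 35.8% were higher and 36.9% lower, so the share lower was near that of all genes and the share higher was below it. The list also holds Tet1, Tet2 and Tet3, which act in the removal of DNA methylation, and these were among the genes not called. Dnmt3b, the methyltransferase gene that methylates these promoters in mouse embryos, had 4.32 and 4.54 CPM in neurons and 7.55 and 6.69 CPM in NPCs, a log2 change of -0.68 ± 0.13. Dnmt3a was also lower, at 59.7 and 59.1 CPM in neurons and 129 and 120 CPM in NPCs (-1.07 ± 0.06). Smchd1, a silencer of clustered genes, was lower by a small margin (-0.16 ± 0.05, edgeR adjusted p = 0.014). Atf7ip was higher, at 54.2 and 60.4 CPM in neurons and 45.0 and 42.1 CPM in NPCs (0.40 ± 0.07). Trim28, the most abundant of the list, had 250 and 263 CPM in neurons and 270 and 267 CPM in NPCs and was not called. Scaling by upper quartiles (-0.166) or by library size alone (-0.273) called it lower. With library size only, 10 of the 12 were called lower and 2 higher, against 49.8% and 25.1% of all genes.

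Of 20 genes for signalling partners of the cytoplasmic tails, 11 were higher in neurons, 5 lower and 4 not called (median 0.30), against 35.8% of all genes higher and 36.9% lower. With library size only, 8 were higher and 6 lower, against 25.1% and 49.8% of all genes. The tyrosine kinase gene Fyn had a log2 change of 0.50 ± 0.05 and Ptk2, for the focal adhesion kinase that protocadherins hold in check, one of 0.94 ± 0.05. Ptk2 had 207 and 210 CPM in neurons and 110 and 108 CPM in NPCs. Genes of the actin-regulating WAVE complex, which alpha tails recruit, included the higher Wasf1 (0.92 ± 0.08), Abi2 (0.59 ± 0.05) and Cyfip2 (0.53 ± 0.05) and the lower Wasf2 (-1.43 ± 0.11), at 6.47 and 8.07 CPM in neurons and 19.7 and 19.4 CPM in NPCs. The kinase C gene Prkce had the largest rise of the list (2.03 ± 0.08), with 47.1 and 54.9 CPM in neurons and 12.1 and 12.8 CPM in NPCs. Marcks, a kinase C substrate downstream of gamma protocadherins in dendrites and the most abundant gene of the list, was lower (-0.60 ± 0.05), with 1152 and 1190.2 CPM in neurons and 1767 and 1780.1 CPM in NPCs. Of 9 genes for the proteases that cut protocadherins, 3 were higher, 2 lower and 4 not called, the share higher being near the 35.8% of all genes. With library size only, 1 was higher and 6 were lower. The presenilin complex gene Aph1b was higher (0.91 ± 0.06), at 98.3 and 102 CPM in neurons and 50.4 and 55.9 CPM in NPCs. The membrane protease gene Mmp14 was lower (-1.08 ± 0.06), at 50.8 and 48.9 CPM in neurons and 105.1 and 104.9 CPM in NPCs, and Adam10 was not called, at 149 and 143 CPM in neurons and 150 and 158 CPM in NPCs, though upper-quartile factors (-0.178) and library size only (-0.284) called it lower.

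Related adhesion genes outside the arrays went in both directions. Of 12 non-clustered protocadherins, 5 were higher in neurons and 7 lower (median -0.33), where 35.8% of all genes were higher and 36.9% lower. Pcdh9, the most abundant, had 365 and 351 CPM in neurons and 111 and 108 CPM in NPCs (log2 change 1.71 ± 0.05), and Pcdh7 had one of 1.12 ± 0.06. Pcdh12, known from endothelium, had 0.141 and 0.155 CPM in neurons and 8.06 and 6.58 CPM in NPCs (-5.59 ± 0.26). Markers of endothelium and pericytes were lower in the same neuron libraries, and their part in this value was not tested. Of 16 classical and type II cadherins tested, 10 were higher in neurons, 5 lower and 1 not called (median 0.43), against the same shares of all genes. Cdh12 had the largest rise (3.24 ± 0.13), at 24.4 and 30.4 CPM in neurons and 2.64 and 3.16 CPM in NPCs. The endothelial Cdh5 had the largest fall (-4.79 ± 0.20), at 0.328 and 0.353 CPM in neurons and 9.15 and 9.70 CPM in NPCs. Cdh2, for N-cadherin, had the highest level, at 774 and 792 CPM in neurons and 587 and 609 CPM in NPCs (0.39 ± 0.05).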

How the data were processed

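Gene counts came from 4 libraries, grouped by their titles. The authors deposited 1 table of estimated counts per gene and library, not scaled between libraries. All 88416 values below 10000 came out as whole numbers of bases (tolerance 0.01) when multiplied by 101. The tools CASAVA 1.9, TopHat 1.2.0 and SAMtools 0.1.18 and the build mm9 are named, per the submitters' processing notes, with no role. How reads were counted (tool, annotation, strand, reads aligning to several places) was not given in the sources used here, so reads shared by similar members are uncertain.

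Counts were rounded, filtered with filterByExpr (15292 rows left), scaled with TMM and fitted unpaired with edgeR 4.0.16 in R 4.3.3 (quasi-likelihood F test, two-sided, Benjamini-Hochberg adjustment over all genes tested, threshold 0.05). Standard errors are the absolute log2 change over the root of its F value. DESeq2 1.42.0 and limma 3.58.1 served as alternatives. The test was checked on simulated data. The plan took the excess over the lowest of all alpha rows. Leaving out Pcdha4-g, and the scalings to beta sums or lowest rows, were chosen after seeing the data. Gene order and the pseudogene note came from RefSeq GRCm38.p6. Members, lists (16 lists, 175 of 176 genes found) and tests were chosen with earlier results of these data known. Genes printed with values were C-type members, the highest levels and the largest and smallest changes per array, and in each pathway and related list the extreme and the most abundant genes. The written rule also covers the marker lists, for which sums are given instead, with library values only for Cspg5. Further genes were named after their values were seen. Same-numbered duplicates did not deviate together (r = 0.05 across 12370 genes). Values of 1 gene in the other lists are not reported here.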

Additional observations from a re-analysis of the deposited data

How the results depend on the processing

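All 21 beta, 15 alpha and 22 gamma rows kept their direction under every alternative, and the counts of these rows called were the same or within 2, except with a filter of 5 CPM, which left 7 beta rows (all 7 called). The excess calls, 25 in the reported fit, ran from 22 to 27 but for that filter, which left 9 rows (6 called). Library size as the only scaling shifted the median log2 change of all genes from -0.02 to -0.23, and of beta, alpha and gamma rows to 1.04, 1.502 and 0.46. Genes called higher were then 3840 against 7610 lower, in place of 5467 and 5641, and upper-quartile factors gave 4609 and 6582. The replicate block gave 11206 calls over all genes, 21, 15 and 22 for beta, alpha and gamma, and 27 for the excess, and changed no count by over 1.5 times, though it called the excess of Pcdhgc4 (adjusted p = 0.036) and Pcdhga9 (0.031). The numbers are not known to pair the libraries. With Pcdha4-g as the lowest alpha row 26 of 36 tested rows of excess were called. Over 1 fixed row 25 of 33 tested were called, with 11 gamma rows higher and 1 lower. Leaving out 1 library gave 3 to 6 calls for alpha excess relative to summed beta counts.

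Signs turned for values near 0, and the cause was not tested. The excess of Pcdhgb7 turned to 0.00232 with RLE factors, 0.00290 without a filter, 0.00179 with DESeq2 and 0.0359 over 1 fixed row, and ran from -0.144 to 0.135 without a library. That of Pcdhgb2 turned to -0.0633 with upper-quartile factors and -0.174 with library size only, and ran from -0.155 to 0.208. With library size only, Pcdhga5 turned to -0.0509, Pcdhgb6 to -0.0861 and Pcdhga10 to -0.0319. Without a library, Pcdhgb6 ran from -0.0581 to 0.291, Pcdhgb1 from -0.468 to 0.887 and Smc3 from -0.114 to 0.0114. The protease median turned to -0.0823 (upper-quartile) and -0.189 (library size only) and ran from -0.0104 to 0.0668, and the silencing median ran from -0.0692 to 0.0268. The marker gene Cspg5 turned to -0.0951 (upper-quartile), -0.201 (library size only) and -0.0316 (5 CPM) and ran from -0.0495 to 0.0633, and Ttr ran from -0.478 to 0.307. Depth limits beta members under 1 CPM, whose standard errors reached 0.42.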
